A study of Mus musculus with 6 samples.

Results

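The genes of the constitutive proteasome were followed in 4T1 cells, a mouse mammary tumour line, that were knockout (KO) or wild type (WT) for Myo1e, which encodes the motor protein myosin 1e. They were taken as the rows of the deposited expression table whose symbols name a Psma, Psmb, Psmc, Psmd, Psme, Psmf or Psmg gene. The immunoproteasome subunits Psmb8, Psmb9 and Psmb10 and the interferon-induced activators Psme1 and Psme2 were left out. This gave 42 of 11452 genes, and all 42 passed the filter on low values that left 11269 genes for testing. Of these, 31 encode core subunits, namely 7 alpha and 7 beta subunits of the 20S particle and 6 ATPases and 11 non-ATPase subunits of the 19S particle. A further 7 encode assembly factors and 3 encode activators or an inhibitor. The last is Psme2b, whose symbol marks it as a relative of the excluded Psme2. Psma8 and Psmb11, variants known from testis and thymus, have no row in the table and were not analysed here.

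Each genotype had 3 libraries, which the labels call pools of cells, and the design text calls them biological replicates. No treatment is given, and the labels do not state how the knockout was made or how the pools were derived. The columns of the table carry the numbers 1, 2 and 4 in both genotypes, and libraries are called here by genotype and number, as KO 4 or WT 4. The labels number the pools 1, 2 and 3 and do not say what column number 4 stands for, so the columns numbered 4 were used as libraries of their genotype. Each number is held by 1 KO and 1 WT library, so number and genotype can be separated. The p-values measure only the spread between these libraries.

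The proteasome degrades proteins tagged with ubiquitin. Its 20S core is a barrel whose outer rings of alpha subunits gate the entry and whose inner rings of beta subunits hold the proteolytic sites. The 19S cap binds the ubiquitin chain, removes it, and uses a ring of ATPases to unfold the protein and pass it into the core. In mammalian cells, the transcription factor encoded by Nfe2l1 raises the expression of most subunit genes together when proteasome activity is short.

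The libraries held 17772003 to 19988206 reads over the genes in the table. The epithelial markers Krt8, Krt18, Krt19, Epcam, Cdh1, Cldn4 and Cldn7 were all measured, with a summed level of 2893 to 3459 CPM (reads scaled to library size) in KO and 3140 to 3948 CPM in WT. None of 6 leukocyte and 4 endothelial markers had a row, and of 5 fibroblast markers 1, Pdgfra, did, at 7.88 to 12.2 CPM in KO and 9.42 to 11.3 CPM in WT. Over all tested genes the libraries numbered 4 stood apart. KO 4 and WT 4 correlated at 0.995, and each correlated with the libraries numbered 1 and 2 at 0.944 to 0.951. Myo1e itself was at 6.87, 6.81 and 6.81 log2 CPM in the KO libraries 1, 2 and 4, against 7.09, 7.02 and 6.91 in the WT libraries of the same numbers. The transcript was thus still present in KO, a little below every WT library, and KO and WT are used here as the labels give them.

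Promoter sequence is shown first because the core subunit genes mostly moved in the same direction between libraries, as described below. The 250 bases upstream of the RefSeq transcription start (GRCm38.p6) were available for 35 of the 42 genes. They were searched on both strands for TGACNNNGC, the core of the element that NFE2L1 and NFE2L2 bind, for CCAAT, which NF-Y binds, and for GGGCGG, which Sp1 binds. TGACNNNGC was found in 5 of the 35, or 14.3%, against 12.3% of the 9071 promoters of genes in the table. CCAAT was found in 12, or 34.3%, against 37.4%, and GGGCGG in 19, or 54.3%, against 61.9%. Each share was near that of the other genes. The stretches around TGACNNNGC are printed 5′ to 3′ on the gene's own strand and lie wholly upstream of the RefSeq start, with the matched letters in capitals.
Psmd12 (chr11:107479278-107479329, plus strand): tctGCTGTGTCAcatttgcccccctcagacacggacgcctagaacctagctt
Psmb6 (chr11:70525288-70525356, plus strand): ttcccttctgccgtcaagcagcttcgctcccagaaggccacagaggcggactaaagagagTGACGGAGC
Psmb5 (chr14:54617996-54618102, minus strand): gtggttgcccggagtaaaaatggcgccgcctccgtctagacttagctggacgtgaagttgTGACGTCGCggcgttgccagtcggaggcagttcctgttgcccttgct
Psmd9 (chr5:123228099-123228189, plus strand): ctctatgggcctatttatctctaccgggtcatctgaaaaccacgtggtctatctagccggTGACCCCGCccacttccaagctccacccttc
Psmc6 (chr14:45329574-45329645, plus strand): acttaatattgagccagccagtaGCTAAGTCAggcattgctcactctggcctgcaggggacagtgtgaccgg
The matches in Psmd12 and Psmc6 are on the opposite strand, so their capitals read as the reverse complement. The match in Psmd9 overlaps a GGGCGG match by 4 bases, and the other 4 overlap neither of the other motifs. Of the genes with a promoter entry, 4 of the 28 that fell in the comparison that follows and 1 of the 7 others, Psmc6, hold TGACNNNGC.

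The largest differences of the proteasome genes set KO 4 and WT 4 apart from the 4 other libraries. In KO 4 and WT 4, 33 of the 42 genes fell and 0 rose, with a median log2 difference of -0.50 for the 42. Across all tested genes 33.8% fell and 31.8% rose, with a median of 0.0031. The 20S alpha and the 19S non-ATPase subunits fell without exception, 7 of 7 and 11 of 11, with medians of -0.65 and -0.86. Of the 20S beta subunits 6 of 7 fell (median -0.57), and of the 19S ATPases 4 of 6 (median -0.32). With quantile normalization the ATPase median was -0.17, with 3 lower and 1, Psmc6, higher past the threshold. Of the assembly factors 2 of 7 fell (median -0.01), and the activators and the inhibitor fell in 3 of 3 (median -0.33). The test was limma's moderated test across all 11269 genes on log2 CPM, with a term for genotype and Benjamini-Hochberg adjustment at 0.05. The split by number was taken up with it known that these libraries stood apart over all genes, and the unadjusted counts for the 42 were 34 lower and 0 higher at p under 0.05.

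Both genotypes showed the difference. Within KO the median of the 42 was -0.53 and 38 were lower in KO 4 than the mean of KO 1 and KO 2. Within WT the median was -0.45 and 36 were lower in WT 4. The differences within KO and within WT, which share no library, correlated at a Pearson's r of 0.917 over the 42 genes, and at 0.921 over all 11269 tested genes, so this likeness was no greater than for other genes. By contrast, libraries 2 and 1 of a genotype differed by a median of 0.02 in KO and 0.03 in WT over the 42. Both libraries numbered 4 lay below all 4 others for 35 of the 42 genes, against 37.0% of all tested genes, and above all 4 for 1 gene, Psmg3, against 35.8%.

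**Figure D1:**
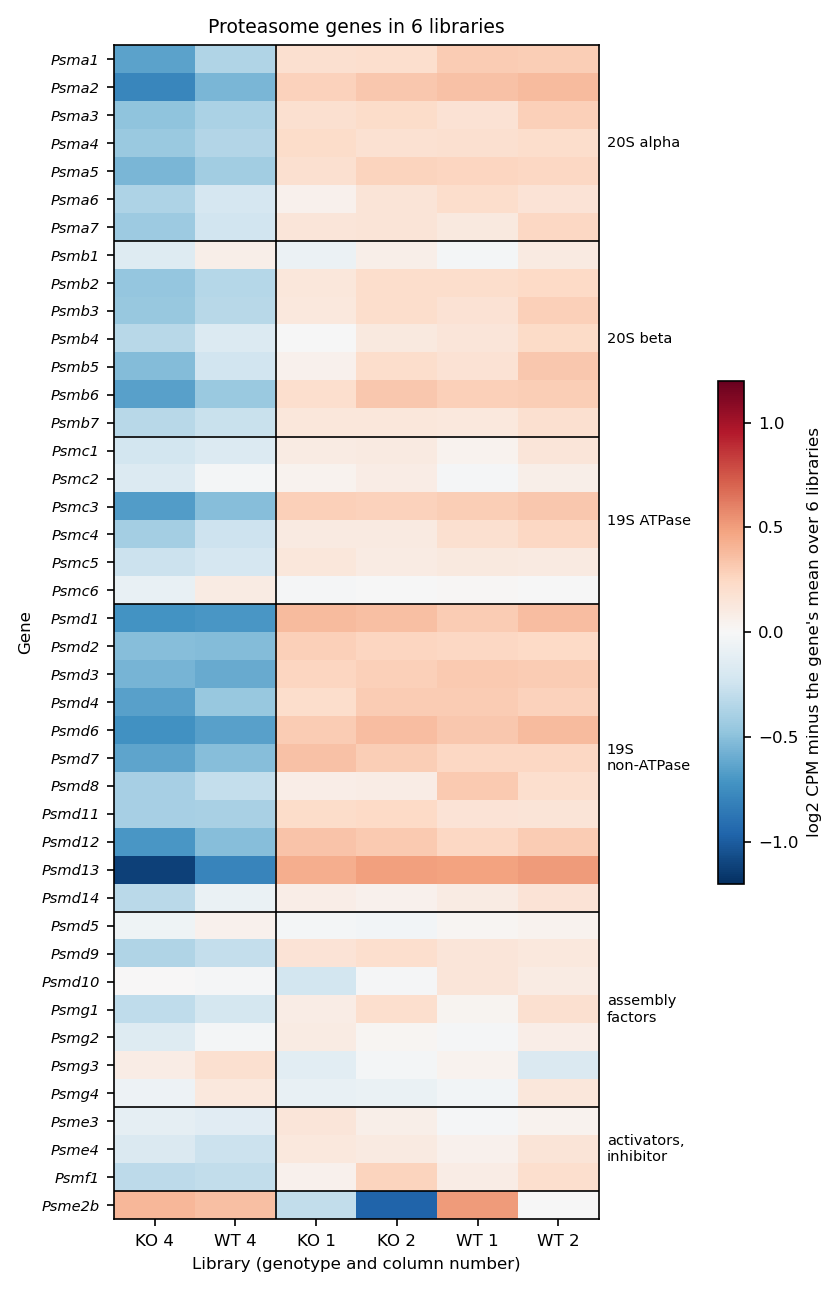
Level of each of the 42 proteasome genes (rows, by particle) in each of the 6 libraries (columns), as log2 CPM minus the gene's own mean over the 6 libraries; blue is below and red above that mean. KO 4 and WT 4 are blue for most 20S and 19S genes, and pale for Psmb1, Psmc2, Psmc6 and most assembly factors.

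As a share of all reads in the table, the 42 genes took 0.551% in KO 4 and 0.581% in WT 4, against 0.757%, 0.770%, 0.771% and 0.782% in KO 1, KO 2, WT 1 and WT 2. The 14 genes of the 20S core took 0.180% and 0.197% in KO 4 and WT 4, against 0.243% to 0.262% in the other 4. The 17 genes of the 19S cap took 0.299% and 0.312%, against 0.437% to 0.441%. These are bulk samples, in which fewer cells with a transcript and less transcript per cell cannot be told apart. Beside this, the 7 mitochondrially encoded genes in the table held 0.343% and 0.309% of reads in KO 4 and WT 4, against 0.379% to 0.493% in the other 4, and their part in the result was not tested. The summed level of the epithelial markers was 2893 to 3140 CPM in libraries 4 and 3392 to 3948 CPM in libraries 1 and 2, without overlap. The single markers did not move together. Krt8, a keratin gene among them, was at 8.88 and 9.09 log2 CPM in KO 4 and WT 4, against 10.15 to 10.40 in the other 4. Cldn7 was also lower in both, and Krt18 and Krt19 overlapped. Epcam was higher, at 8.09 and 8.40 log2 CPM in KO 4 and WT 4, against 7.66 to 7.90 in the other 4. Cdh1 and Cldn4 were likewise above all of the other 4. Pdgfra, the one fibroblast marker measured, was at 11.3 to 12.2 CPM in libraries 4 and 7.88 to 11.2 CPM in libraries 1 and 2. The part of these genes in the result was not tested.

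**Figure D2:**
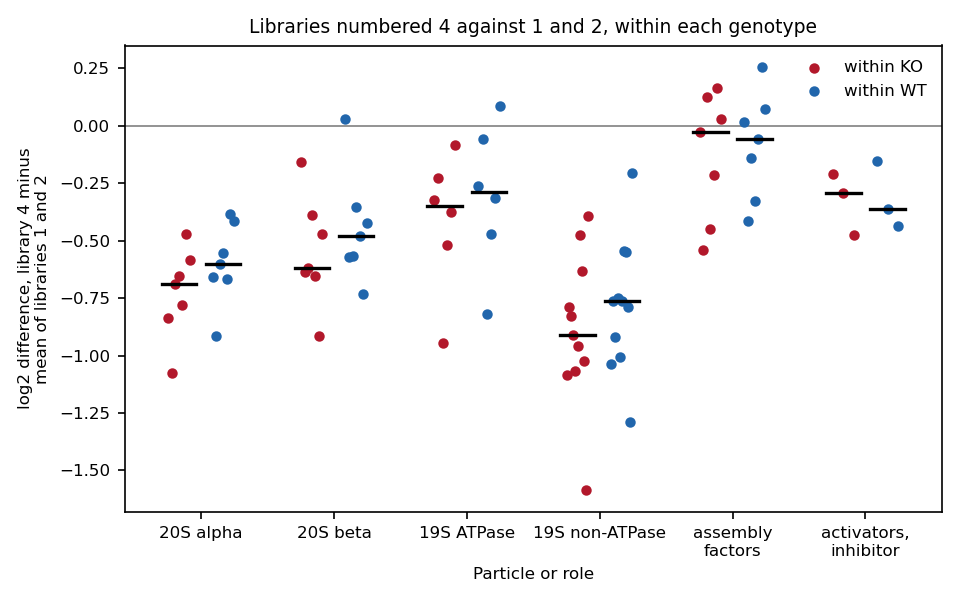
Difference of the library numbered 4 from the mean of libraries 1 and 2 (log2, vertical axis) for each gene, by particle (horizontal axis), within KO (red, left) and within WT (blue, right); black bars are medians. The 19S non-ATPase medians are lowest, at -0.91 in KO and -0.76 in WT, and the assembly factor medians are nearest 0. Psme2b is not drawn.

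The alpha subunits, which form the outer rings, ranged from -0.997 to -0.43 in log2 difference. Psma2 (chromosome 13, 14613240 to 14674236, plus strand, GRCm38 as in the GENCODE M21 annotation) had 6.38 and 6.60 log2 CPM in KO 4 and WT 4, against 7.43, 7.47, 7.51 and 7.54 in KO 1, KO 2, WT 1 and WT 2. It fell the most of the alpha genes, with a difference of -0.997 (SE 0.06, adjusted p = 9.1e-07), and the 2 groups of libraries did not overlap. Psma6 had 7.33 and 7.49 log2 CPM in KO 4 and WT 4, against 7.75, 7.85, 7.90 and 7.86 in KO 1, KO 2, WT 1 and WT 2, and fell by the least, with a difference of -0.43 (SE 0.05, adjusted p = 1.1e-04). Between them lay Psma1 (-0.75), Psma5 (-0.72), Psma3 (-0.65), Psma4 (-0.60) and Psma7 (-0.50). None of the 7 alpha genes overlapped between the libraries numbered 4 and the others.

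The beta subunits with a proteolytic site are encoded by Psmb6 (caspase-like), Psmb7 (trypsin-like) and Psmb5 (chymotrypsin-like, the main target of proteasome inhibitor drugs). Psmb6 (chromosome 11, 70525367 to 70527858, plus strand) had 6.40 and 6.61 log2 CPM in KO 4 and WT 4, against 7.25, 7.38, 7.34 and 7.35 in KO 1, KO 2, WT 1 and WT 2. Psmb7 had 7.02 and 7.09 log2 CPM in KO 4 and WT 4, against 7.49, 7.49, 7.48 and 7.55 in KO 1, KO 2, WT 1 and WT 2. Psmb5 (chromosome 14, 54614119 to 54618022, minus strand) had 5.11 and 5.40 log2 CPM in KO 4 and WT 4, against 5.69, 5.84, 5.80 and 5.96 in KO 1, KO 2, WT 1 and WT 2. All 3 were lower in both libraries numbered 4 than in any other library, and each passed the threshold. The differences were -0.82 (SE 0.06, adjusted p = 5.0e-06) for Psmb6, -0.45 (SE 0.05, adjusted p = 5.3e-05) for Psmb7 and -0.57 (SE 0.08, adjusted p = 2.0e-04) for Psmb5.

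Of the beta subunits without a proteolytic site, Psmb2 (-0.60), Psmb3 (-0.59) and Psmb4 (-0.37) also fell. Psmb1 did not pass the threshold. It had 7.72 and 7.95 log2 CPM in KO 4 and WT 4, against 7.81, 7.95, 7.85 and 7.98 in KO 1, KO 2, WT 1 and WT 2, so that the groups overlapped, and its difference was -0.06 (SE 0.07, adjusted p = 0.43). With quantile normalization the sign of the Psmb1 difference turned, at 0.089, and it also turned without KO 4, at 0.030.

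The ATPases of the 19S cap did not all fall. Psmc3 (chromosome 2, 91054009 to 91066369, plus strand) had 7.17 and 7.32 log2 CPM in KO 4 and WT 4, against 8.12, 8.12, 8.13 and 8.16 in KO 1, KO 2, WT 1 and WT 2, and its difference was -0.88 (SE 0.05, adjusted p = 1.1e-06). Psmc6 (chromosome 14, 45329788 to 45349705, plus strand) had 7.72 and 7.90 log2 CPM in KO 4 and WT 4, against 7.79, 7.80, 7.83 and 7.81 in KO 1, KO 2, WT 1 and WT 2. For Psmc6 KO 4 was the lowest and WT 4 the highest of the 6 libraries, and it did not pass the threshold, with a difference of 0.0027 (SE 0.06, adjusted p = 0.97). Both genes encode members of the same ATPase ring, which holds one copy of each of its subunits. The other ATPase genes lay between, with Psmc4 at -0.50, Psmc5 at -0.34 and Psmc1 at -0.29, all past the threshold, and Psmc2 at -0.14 (adjusted p = 0.057). Psmc1 lost its call with quantile normalization, at -0.099. Psmc2 passed with median centring (-0.16), without WT 1 (-0.17) and without WT 4 (-0.23), and stood at 0.026 with quantile normalization.

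The non-ATPase subunits of the cap had the lowest median of the particles, and all 11 fell. Psmd13 (chromosome 7, 140881968 to 140898643, plus strand), a scaffold subunit of the lid, had 5.29 and 5.62 log2 CPM in KO 4 and WT 4, against 6.85, 6.91, 6.89 and 6.92 in KO 1, KO 2, WT 1 and WT 2. In reads these were 817 and 920 in KO 4 and WT 4, against 2243, 2082, 2298 and 2255 in KO 1, KO 2, WT 1 and WT 2. Its difference of -1.44 (SE 0.07, adjusted p = 5.5e-07) was the largest of the 42, at 0.369 times the level of libraries 1 and 2. An exon of Psmd13 overlaps one of Sirt3 on the opposite strand by 329 bases. In all, 11 of the 42 genes share exon bases with another gene, among them Psmb5, Psmb7, Psmc3, Psmd1, Psmd3 and Psmg3, and since no strand setting of the counting is given in the labels, reads there cannot be told apart.

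The large scaffold subunit gene Psmd1 had 7.66 and 7.68 log2 CPM in KO 4 and WT 4, against 8.75, 8.74, 8.68 and 8.75 in KO 1, KO 2, WT 1 and WT 2, and fell by 1.06 (SE 0.05, adjusted p = 4.2e-07) on the log2 scale. Psmd2, its partner scaffold in the base, differed by -0.78. The lid subunit genes Psmd6, Psmd12, Psmd3, Psmd7, Psmd11 and Psmd8 differed by -1.04, -0.91, -0.87, -0.86, -0.59 and -0.51, and the ubiquitin receptor gene Psmd4 by -0.83. Psmd14, which encodes the deubiquitinating enzyme of the lid, fell by the least. It had 7.11 and 7.36 log2 CPM in KO 4 and WT 4, against 7.52, 7.49, 7.54 and 7.60 in KO 1, KO 2, WT 1 and WT 2, and a difference of -0.30 (SE 0.06, adjusted p = 0.0015). Its partner in the enzyme dimer is the product of Psmd7, which fell more.

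Assembly factors, which build the particles and leave them, did not move together. Psmd9, a chaperone of the 19S base, had 5.04 and 5.11 log2 CPM in KO 4 and WT 4, against 5.56, 5.60, 5.54 and 5.52 in KO 1, KO 2, WT 1 and WT 2, with a difference of -0.48 (SE 0.06, adjusted p = 1.7e-04). Psmd9 shares up to 1849 bases of exon with a long noncoding RNA gene on the opposite strand. Psmd5, a further chaperone of the base, had 6.39 and 6.50 log2 CPM in KO 4 and WT 4, against 6.43, 6.41, 6.47 and 6.49 in KO 1, KO 2, WT 1 and WT 2, groups that overlapped, and a difference of -0.0046 (SE 0.05, adjusted p = 0.95). The other base chaperone gene, Psmd10 (gankyrin), differed by -0.0077 and did not pass.

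The 20S assembly chaperone genes were Psmg1, which fell by 0.39 (SE 0.08, adjusted p = 0.0021), and Psmg2 (-0.14), Psmg3 (0.21) and Psmg4 (0.05), of which the last 3 did not pass. Psmg3 had 4.22 and 4.31 log2 CPM in KO 4 and WT 4, against 4.00, 4.10, 4.16 and 3.95 in KO 1, KO 2, WT 1 and WT 2, and both libraries numbered 4 were above all others. With the correction for transcript length and GC content Psmg3 and Psmg4 passed as higher, at 0.34 and 0.22, and Psmg4 stood at -0.017 with quantile normalization. Psmg3 also passed as higher without WT 1, at 0.25.

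The activators and the inhibitor bind the ends of the 20S core. Psmf1, the inhibitor PI31, had 4.83 and 4.86 log2 CPM in KO 4 and WT 4, against 5.20, 5.41, 5.24 and 5.35 in KO 1, KO 2, WT 1 and WT 2, and a difference of -0.46 (SE 0.08, adjusted p = 8.7e-04). Psme3, the nuclear activator PA28 gamma, had 8.06 and 8.03 log2 CPM in KO 4 and WT 4, against 8.31, 8.23, 8.15 and 8.21 in KO 1, KO 2, WT 1 and WT 2, and a difference of -0.18 (SE 0.05, adjusted p = 0.012). Both groups of libraries were apart for Psmf1 and for Psme3. Psme4, the activator PA200, fell by 0.33 (SE 0.05, adjusted p = 5.4e-04). Psme3 was not past the threshold with quantile normalization (0.0095) or without KO 4 (-0.15).

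Psme2b was measured from 12 to 39 reads per library, against 286 to 11401 for the other 41 genes. It had 0.94 and 0.90 log2 CPM in KO 4 and WT 4, against 0.25, -0.42, 1.05 and 0.54 in KO 1, KO 2, WT 1 and WT 2. The libraries overlapped, and its difference was 0.57 (SE 0.33, adjusted p = 0.16). Reads of this gene may be shared with Psme2, so its value is uncertain.

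Levels were compared between genes after division by the length of the main transcript, as log2 CPM per kilobase, and they rest on the transcript chosen. In libraries 1 and 2 the core subunits had a median of 7.29 and a standard deviation of 0.58 over 31 genes. In libraries 4 the median was 6.65 and the standard deviation 0.73, so the level per length was lower and the 31 genes together were farther apart. By particle the standard deviation went from 0.80 to 0.95 for the 20S alpha and from 0.56 to 0.73 for the 19S non-ATPase genes. For the 20S beta genes it hardly changed, from 0.588 to 0.604, as for the 19S ATPases, from 0.402 to 0.405. Psma7 had the highest level per length in both, 7.61 ± 0.15 in libraries 4 and 8.11 ± 0.06 in libraries 1 and 2 (SD, n = 2 and n = 4). Psmd13 had the lowest, 4.46 ± 0.23 and 5.90 ± 0.03.

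Among the proteolytic subunits, Psmb5 had a lower level per length than Psmb6 and Psmb7 in every library. Psmb5 was at 5.41 ± 0.21 log2 CPM per kilobase in libraries 4 and 5.98 ± 0.11 in libraries 1 and 2. Psmb6 was at 6.83 ± 0.15 and 7.65 ± 0.05, and Psmb7 at 6.84 ± 0.05 and 7.29 ± 0.03. Psmb6 was above Psmb7 in libraries 1 and 2, and in libraries 4 the 2 did not differ beyond their spread. Psmb1 and Psmc6, which did not pass the threshold, were among the lower genes of their rings in libraries 1 and 2, at 7.08 and 6.65, and stood at 7.02 and 6.65 in libraries 4. In libraries 4 Psmb1 was thereby second to Psmb4 (7.25) among the beta subunits. Assembly factors were lower than core subunits per length, with medians of 4.44 in libraries 4 and 4.31 in libraries 1 and 2.

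**Figure D3:**
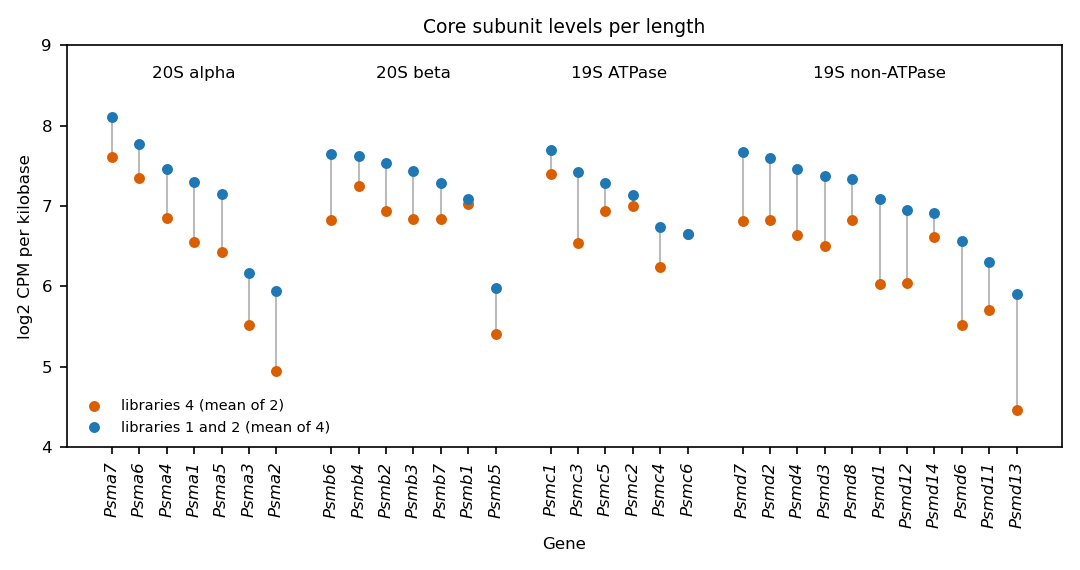
Level per transcript length (log2 CPM per kilobase, vertical axis) of the 31 core subunit genes (horizontal axis, by particle), as the mean of the 2 libraries numbered 4 (orange) and of the 4 libraries numbered 1 or 2 (blue). Psmb1 and Psmc6 have both points nearly together, and Psmd13 has them farthest apart, at 4.46 and 5.90.

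Of 29 listed genes that regulate the proteasome or work beside it, 28 were measured. In libraries 4, 14 fell and 10 rose, with a median of -0.22, where 33.8% of all tested genes fell and 31.8% rose, so that the share that rose was near that of all genes. Nfe2l1, the transcription factor gene named above, had 9.80 and 9.82 log2 CPM in KO 4 and WT 4, against 8.40, 8.29, 8.46 and 8.47 in KO 1, KO 2, WT 1 and WT 2. It rose, with a difference of 1.40 (SE 0.06, adjusted p = 2.0e-07), in the same libraries in which most subunit genes fell. Its relative Nfe2l2 rose by 0.70, and Ngly1, whose enzyme removes sugar chains from the NFE2L1 protein, by 0.84. Ddi2, whose protease cleaves it, differed by 0.11 and did not pass.

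Next come the partners that bind the particle. Pomp, the maturation factor of the 20S core, had 5.94 and 6.05 log2 CPM in KO 4 and WT 4, against 7.09, 7.15, 7.14 and 7.16 in KO 1, KO 2, WT 1 and WT 2, and a difference of -1.14 (SE 0.05, adjusted p = 3.8e-07). Uchl5, a deubiquitinating enzyme bound to the cap, differed by -1.33 (SE 0.08, adjusted p = 1.4e-06), and Adrm1, the ubiquitin receptor that recruits it, by -0.80. Usp14, a further deubiquitinating enzyme of the cap, differed by -0.48, and the small cap subunit gene Sem1 by -0.16, which did not pass (adjusted p = 0.054). Vcp, the segregase that extracts ubiquitinated proteins, fell (-1.02), as did the shuttle factor genes Rad23b (-0.34), Ubqln1 (-0.42), Ubqln2 (-0.90) and Ubqln4 (-0.66), and the ubiquitin-activating enzyme gene Uba1 (-0.58). The polyubiquitin gene Ubb rose by 0.14 (adjusted p = 0.035).

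The immunoproteasome subunits take the places of the proteolytic subunits in a core induced by interferon. Psmb9, which replaces the Psmb6 product, rose by 1.48 (adjusted p = 0.0035), and both libraries numbered 4 were above all others. It was measured from 37 to 241 reads per library. Its difference was 2.01 within KO and 0.95 within WT, and WT 2 minus WT 1 was -1.03. Psmb8, which replaces the Psmb5 product, rose by 0.71 (adjusted p = 0.0097), but the groups overlapped, with WT 1 above KO 4. For Psmb8, WT 2 minus WT 1 was -0.85. Psmb10, Psme1 and Psme2 did not pass. Thus 2 of these 5 genes rose, against 31.8% of all tested genes. The 8 subunit genes of TRiC, a cytosolic chaperonin and likewise a large complex, had a median of -0.51, and 7 of 8 fell. The median of the 42 proteasome genes, -0.50, was near that of TRiC, and no test of a difference between the sets was made.

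**Figure D4:**
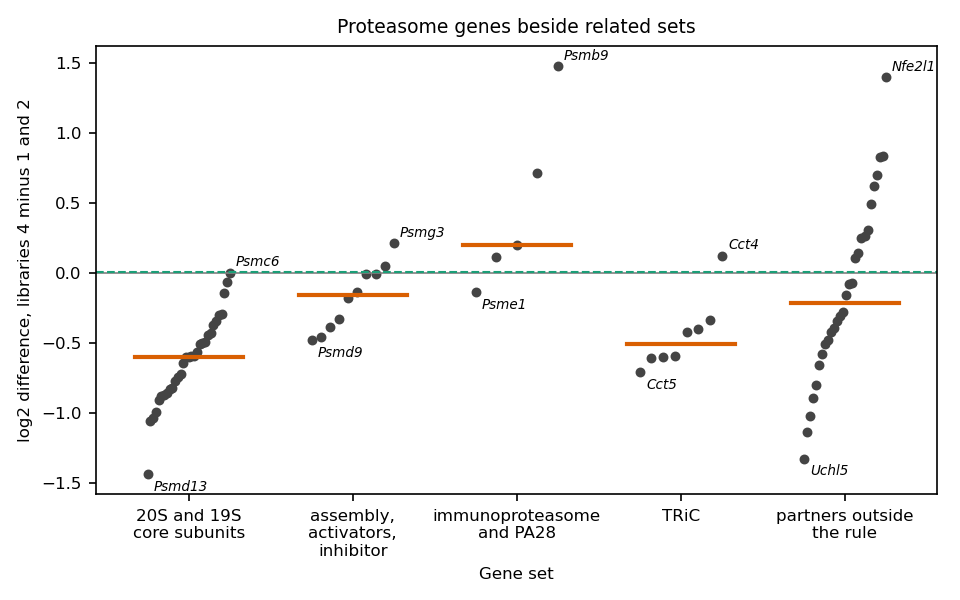
Difference between libraries 4 and libraries 1 and 2 (log2, vertical axis) for single genes in 5 sets (horizontal axis); orange bars are medians and the dashed line is the median of all tested genes. Psmd13 and Psmc6 are the ends of the core subunits, and Nfe2l1 at 1.40 and Uchl5 at -1.33 those of the partners.

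Transcript length and GC content were examined because the proteasome genes are short, with a median transcript of 1490 bases against 3027 for all tested genes. Over the 11158 tested genes that have a length, which share the same 6 libraries, rank correlation (Spearman's rho) of the log2 difference of libraries 4 with length was 0.087. Over the 42 it was -0.18. After a correction of each library for length and GC content, 33 of the 42 genes were lower past the threshold and the median was -0.44.

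Between the genotypes, no proteasome gene passed the threshold. In limma's test of KO against WT without further terms, 0 of 42 were lower and 0 higher, where 0% of all tested genes passed in either direction. No member had an unadjusted p under 0.05, against 12 lower and 11 higher genes of 11269. With limma voom on the recovered reads 0 of 42 passed as well. The median log2 difference of the 42 was -0.06, or -4.30%, against -0.0071 for all tested genes. Without KO 4 the median was 0.13, and without WT 4 it was -0.24. The spread between libraries 4 and the others enters the error of this test, and the median SE of the 42 was 0.21. With the library number as a replicate block the median SE was 0.05, and again 0 of 42 passed, where 0.00887% of all genes were called lower and 0% higher. At an unadjusted p under 0.05 the block gave 7 of 42 lower and 0 higher, against 5.08% of all tested genes lower and 4.84% higher.

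Within pairs of the same number, KO was below WT for 25, 29 and 36 of the 42 genes in the pairs numbered 1, 2 and 4, against 50.1%, 50.3% and 53.3% of all tested genes. The pair medians were -0.04, -0.02 and -0.12. For 17 of the 42 genes KO was lower in 3 of 3 pairs, against 17.0% of all tested genes, and for 2 it was higher in 3 of 3, against 15.6%. The KO and WT libraries did not overlap for 3 genes that were lower in KO, Psmc6, Psmd5 and Psmg4, against 1.59% of all tested genes. They did not overlap for 0 that were higher, against 2.04%. Genotypes must overlap where both libraries 4 lie below, or both above, all others. That held for 35 and 1 of the 42, against 37.0% and 35.8% of all tested genes. The 3 genes differed in libraries 4 by only 0.0027, -0.0046 and 0.05. For the 14 genes of the 20S core the pair medians were -0.07, -0.06 and -0.17, and for the 17 of the 19S cap -0.01, -0.01 and -0.12. On the average of the 3 libraries KO was lower for 34 of the 42, against 52.9% of all tested genes. Among the 20S genes it was lower for 14 of 14 on this average, which includes the pair numbered 4. In pairs 1, 2 and 4 it was lower for 10, 12 and 14 of the 14, and in 3 of 3 pairs for 8. The 8 TRiC genes were likewise lower in KO for 8 of 8 on the average, and in pairs 1, 2 and 4 for 2, 8 and 8 of 8. For 2 of the 8 TRiC genes KO was lower in 3 of 3 pairs.

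**Figure D5:**
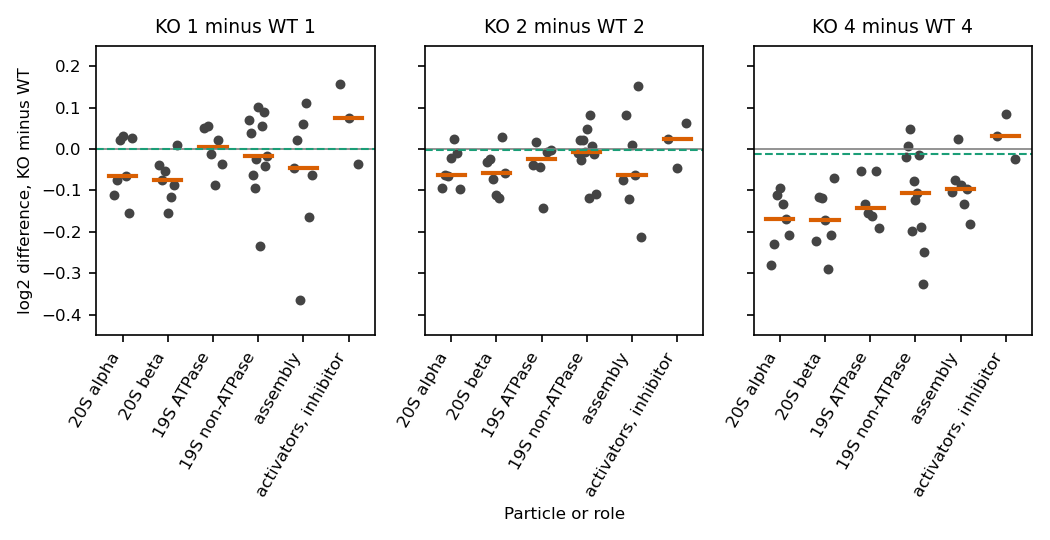
KO minus WT difference (log2, vertical axis) of each proteasome gene within the pairs numbered 1, 2 and 4 (panels), by particle (horizontal axis); orange bars are medians and the dashed line is the median of all tested genes in that pair. The 20S medians are -0.17 (alpha) and -0.17 (beta) in the pair numbered 4. Psme2b is not drawn.

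Over all genes, KO minus WT was lower for shorter transcripts in each pair. The proteasome genes are short, and the cause of their KO minus WT difference was not tested. The rank correlation (Spearman's rho) over 11158 genes was 0.181 in pair 1, 0.109 in pair 2 and 0.378 in pair 4, and over the 42 genes it was 0.443, 0.277 and 0.29 in the same order. With the correction for length and GC content the median KO minus WT difference of the 42 was -0.013, and 25 of 42 were lower in KO, or 59.5%, against 50.5% of all genes. With the correction and the block 1 of 42, Psma1, was lower at an unadjusted p under 0.05, against 4.71% of all genes. The 20S genes then had a median of -0.032 and the 19S genes one of 0.008.

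By particle, the gene with the largest KO minus WT difference of the same sign in all pairs was as follows, and limma called none of these genes, with an adjusted p of 0.9999 for each, and of 0.38 to 0.66 with the block. Psmb5 had 5.69, 5.84 and 5.11 log2 CPM in the KO libraries 1, 2 and 4, against 5.80, 5.96 and 5.40 in the WT libraries of the same numbers. KO minus WT gave -0.17 (SE 0.24), and -0.12, -0.12 and -0.29 in pairs 1, 2 and 4. Psma1 had 7.51, 7.51 and 6.68 log2 CPM in the KO libraries 1, 2 and 4, against 7.62, 7.61 and 6.96 in the WT libraries of the same numbers, and a difference of -0.16 (SE 0.30). In both genes KO was below WT in each pair, and the genotypes overlapped because WT 4 was below KO 1 and KO 2.

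Psmd8 had 7.87, 7.88 and 7.40 log2 CPM in the KO libraries 1, 2 and 4, against 8.10, 7.997 and 7.50 in the WT libraries of the same numbers, with a difference of -0.15 (SE 0.21). Psmc4, of the ATPase ring, had 7.21, 7.21 and 6.69 log2 CPM in the KO libraries 1, 2 and 4, against 7.30, 7.35 and 6.85 in the WT libraries of the same numbers, with -0.13 (SE 0.21) for KO minus WT. As for Psma1, the KO library was the lower of every pair. Psmg4, an assembly chaperone gene, had 4.16, 4.17 and 4.19 log2 CPM in the KO libraries 1, 2 and 4, against 4.22, 4.38 and 4.37 in the WT libraries of the same numbers. Its genotypes did not overlap, KO being lower by 0.15 (SE 0.11). Psme3 had 8.31, 8.23 and 8.06 log2 CPM in the KO libraries 1, 2 and 4, against 8.15, 8.21 and 8.03 in the WT libraries of the same numbers, and of these genes it alone was higher in KO, by 0.07 (SE 0.11). The other proteolytic subunit genes, Psmb6 and Psmb7, differed by -0.09 (SE 0.33) and -0.04 (SE 0.19), and were not of the same sign in all pairs.

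The KO minus WT difference of the pair numbered 4 was set against that of pairs 1 and 2 by an interaction term. No proteasome gene passed in limma's test, 0 lower and 0 higher of 42, where 0% of all tested genes passed, and the smallest adjusted p of the 42 was 0.997. At an unadjusted p under 0.05 there were 1 lower, Psmd13 (-0.30, SE 0.11, named after its value was seen), and 0 higher of the 42, and 223 lower and 217 higher of 11269. With 1 library of each genotype numbered 4, the median SE of this term was 0.11, and a p that misses the threshold does not show that the pairs were alike.

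The immunoproteasome and activator genes were left out of the set and are given for their values only. Psmb9, Psmb8, Psmb10, Psme1 and Psme2 differed by -0.92, -0.49, -0.33, -0.30 and -0.30 in KO minus WT. Each was lower in 3 of 3 pairs, against 17.0% of all tested genes, and 0 of 5 passed the threshold with or without the block. At an unadjusted p under 0.05, limma with the block gave 5 of 5 lower, against 5.08% of all tested genes. With the length and GC correction added it again gave 5 of 5, against 4.71%. Of the 42 genes Psme2b had the largest difference, -0.57 (SE 0.40), with -0.80, -0.96 and 0.04 in pairs 1, 2 and 4. The other 41 lay between -0.17 and 0.07.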

How the data were processed

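RNA was measured by sequencing of 3 KO and 3 WT libraries, from a stranded mRNA kit per the labels' protocols. The deposited table holds log2 CPM, the authors' reads divided by an effective library size with a prior added, for 11452 genes in 6 columns. The tools named in the submitters' processing notes are STAR 2.7.3a, Trimmomatic 0.39, edgeR and, from Subread 1.6.4, featureCounts, and the build is GRCm38. How the authors filtered and scaled the values is not stated in the labels.

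The values came out as whole reads for all genes within 0.01 read, which gave the reads per library. A count of 3 reads was 0.144 to 0.173 CPM. Genes were tested where log2 CPM was at least 0 in at least 3 libraries, and 183 were dropped. limma 3.58.1 (R 4.3.3) was fitted with a trended moderated variance, two-sided, and Benjamini-Hochberg adjustment over 11269 genes. The fits had genotype alone, genotype with a term for library number 4, and their interaction. A further fit had genotype with each library number as a replicate block. The fits with genotype alone and with the term for library number 4 were tested on simulated reads with known changes. The simulated reads for KO against WT held no difference of libraries 4. The other fits and steps were not tested in this way.

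Same-numbered KO and WT libraries deviated together, with correlations of 0.744, 0.784 and 0.921 for numbers 1, 2 and 4, so the numbers were taken to pair the libraries. Differently numbered libraries were nearly as close, KO 1 with WT 2 at 0.687 and KO 2 with WT 1 at 0.617, since the split by number 4 enters all these values. Free of that split, the differences between libraries 1 and 2 in KO and in WT correlated at 0.256 over genes. The pairing comes from the data, since the labels do not give it. The closest 2 libraries still differed beyond counting error, with a chi-square of 4.89 per degree of freedom. Transcript length and GC content came from GENCODE M21, as the longest principal transcript of a gene, and were removed by loess with a span of 0.3 as an alternative. Promoters came from RefSeq.

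The members and the lists of partners were chosen with earlier results of these data known. Values in every library are given for Psmb5, Psmb6 and Psmb7, and in each particle for the genes with the largest and smallest difference of libraries 4 and with the largest KO minus WT difference of the same sign in 3 of 3 pairs. Partners past the threshold may be named, and other genes are named to account for every member.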

Additional observations from a re-analysis of the deposited data

How the results depend on the processing

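Of the 42 proteasome genes, 31 to 34 were lower in libraries 4 under every alternative run, and the median kept its sign. With the length and GC correction the median was -0.44 and 2 genes, Psmg3 and Psmg4, passed as higher. With quantile normalization 1 gene, Psmc6, passed as higher, the median of the assembly factors was -0.068, and 2 of the 3 activator and inhibitor genes passed as lower. With each library left out in turn 0 to 1 gene passed as higher, the 1 being Psmg3 without WT 1. Sign changes were found only in genes with small differences. These were Psmb1 (0.089), Psmc2 (0.026), Psmd5 (0.063), Psmg4 (-0.017) and Psme3 (0.0095) with quantile normalization, Psmc6 (-0.020) with median centring, and Psmd5 (0.0054) and Psmd10 (0.074) with the length and GC correction. With 1 library left out, Psmb1 ranged from -0.16 to 0.030, Psmc6 from -0.082 to 0.088, Psmd5 from -0.027 to 0.018, and Psmd10 from -0.14 to 0.13. The cause was not tested.

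For KO against WT, 0 of 42 genes passed under every alternative run, the replicate block by library number included, which left the median at -0.06 and changed no call. The median was -0.013 with the length and GC correction, both without and with the replicate block, and Psmb7 then stood at 0.0082 in both. With 1 library left out the median ranged from -0.24 to 0.13, Psma1 from -0.38 to 0.12, Psmb5 from -0.33 to 0.044, Psmb6 from -0.33 to 0.22, Psmb7 from -0.18 to 0.12, Psmc4 from -0.29 to 0.043 and Psmd8 from -0.33 to 0.0068. Leaving out 1 library makes the share of libraries numbered 4 unequal between genotypes, and the highest values were without KO 4 and the lowest without WT 4. The edgeR test on recovered reads was not run, since the deposited unit is log2, and limma voom on those reads, chosen after seeing the data, stood in for it.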
